A study of Mus musculus with 9 samples.

Results

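The 10 genes described here encode secreted or released proteins that act on bacteria at the skin surface: the beta-defensins Defb1, Defb6 and Defb14, the peptidoglycan-binding proteins Pglyrp3 and Pglyrp4, the cathelicidin Camp, the calprotectin subunits S100a8 and S100a9, lipocalin 2 (Lcn2) and the protease inhibitor Slpi. They were chosen by symbol, and all 10 are among the 24532 genes of the count table. The RNA came from keratinocytes of C57BL/6 mouse skin, taken on postnatal days 1, 7 and 14 (3 libraries for each day). The cells of all 3 groups were sorted from fresh skin as CD45.2-negative and PI-negative (propidium iodide, a dye that enters dead cells), and no treatment or genetic change is given for any group. That gate removes leukocytes and dead cells but uses no keratinocyte marker. The labels name neither the animals behind each library nor their sex, so p-values measure library-to-library spread, which can be purely technical. Library headers give days 7 and 14, and D0 for the libraries taken here as day 1. Those of days 1 and 14 carry the numbers 4, 5 and 6, and those of day 7, with another header style, the numbers 1, 2 and 3. These numbers name the libraries below.

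Antimicrobial peptides of the epidermis are small, mostly cationic proteins. Beta-defensins and the cathelicidin damage bacterial membranes, peptidoglycan recognition proteins bind the bacterial cell wall, and calprotectin and lipocalin 2 withhold metal ions and iron from bacteria. Keratinocytes make some of them without stimulation and raise others in wounds, infection and inflammatory skin disease, when several are also brought in by neutrophils.

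Total counts per library ranged from 50670191 to 62970768. Libraries of the same day correlated at 0.986 to 0.991 over log2 levels of the tested genes, and those of different days at 0.885 to 0.957. The basal keratins were among the most abundant transcripts, with Krt5 at 21980 ± 911, 22460 ± 588 and 15520 ± 901 CPM (counts scaled to library size with TMM factors, mean ± SD, n = 3) and Krt14 at 12760 ± 318, 10470 ± 388 and 7058 ± 414 CPM on days 1, 7 and 14. Marker genes of other skin cells also moved with day, and those of upper epidermal layers and sebaceous glands are given beside Pglyrp4. Summed CPM of 7 melanocyte markers was 388 to 413 on day 1, 106 to 127 on day 7 and 5.07 to 9.95 on day 14. That of 7 fibroblast markers was 124 to 229, 17.5 to 64 and 17 to 37.8, much of it from Dcn (means of 106.9, 11.5 and 6.789 CPM). Of these 7, 2 were called lower in the first week and 0 in the second (edgeR adjusted p under 0.05). Of all tested genes 24% and 35.1% were lower. Xist, transcribed in female cells, was at 1352 ± 428, 0 and 2534 ± 184 CPM on days 1, 7 and 14. The Y-linked Ddx3y was at 41.78 ± 13.3, 105.2 ± 5.9 and 0 CPM. Each library of day 1 held both, with 53509 to 104994 counts of Xist and 1781 to 3456 of Ddx3y. By these transcripts the cells were male on day 7, female on day 14 and of both sexes within each library of day 1. Sex-linked transcripts therefore differ between the days in every comparison, and header style and library numbers differ between day 7 and the other days but not between days 1 and 14. Where they differ, their parts and that of day cannot be told apart.

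In the mm10 assembly (GRCm38.p6), the 3 beta-defensin genes lie on chromosome 8, with Defb6 (gene 116746) at chr8:19225478-19228209, Defb14 (244332) at chr8:19160244-19195309 and Defb1 (13214) at chr8:21776555-21795185, all on the plus strand. On chromosome 3 lie 4 members. S100a8 (20201, plus strand, chr3:90669071-90670034) and S100a9 (20202, minus strand, chr3:90692630-90695721) are separated by 22596 bases, and Pglyrp4 (384997, plus strand, chr3:90726906-90741517) starts 31185 bases past S100a9. Pglyrp3 (242100, plus strand, chr3:92012477-92032672) lies 1270960 bases beyond Pglyrp4, next to the epidermal differentiation gene Lor. Lcn2 (16819, chr2:32384637-32387739) and Slpi (20568, chr2:164354070-164356507) are on the minus strand of chromosome 2, and Camp (12796, chr9:109847377-109849456) is on the minus strand of chromosome 9. Pglyrp3 overlaps the pseudogene Mif-ps3 and Slpi the microRNA gene Mir7678. The strand setting of the counting is not given in the sources used here. Reads of overlapping genes cannot be told apart.

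Promoter sequences were matched for 6 of the 10 members, from RefSeq with the build GRCm38.p6. The 250 bases before the gene start are shown for Defb6, which had the widest range of levels, and for S100a8 and S100a9, neighbouring genes whose products form 1 complex but whose transcripts moved apart. Capitals mark the letters TTGCNNAA (C/EBP) in Defb6 and S100a9 and TATAAA in S100a8. The windows are chr8:19225228-19225477 on the plus strand, chr3:90668821-90669070 on the plus strand and chr3:90695722-90695971 on the minus strand, each read 5′ to 3′ in the direction of its gene.
Defb6: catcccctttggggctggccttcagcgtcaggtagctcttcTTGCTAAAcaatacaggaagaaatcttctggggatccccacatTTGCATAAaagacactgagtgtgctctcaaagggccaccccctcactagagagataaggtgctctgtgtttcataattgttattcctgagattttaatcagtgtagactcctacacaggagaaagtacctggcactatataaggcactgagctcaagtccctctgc
S100a8: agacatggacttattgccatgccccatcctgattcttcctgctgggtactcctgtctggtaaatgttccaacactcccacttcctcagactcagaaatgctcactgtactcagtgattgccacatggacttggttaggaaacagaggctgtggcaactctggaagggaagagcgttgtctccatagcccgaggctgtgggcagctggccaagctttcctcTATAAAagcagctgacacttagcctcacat
S100a9: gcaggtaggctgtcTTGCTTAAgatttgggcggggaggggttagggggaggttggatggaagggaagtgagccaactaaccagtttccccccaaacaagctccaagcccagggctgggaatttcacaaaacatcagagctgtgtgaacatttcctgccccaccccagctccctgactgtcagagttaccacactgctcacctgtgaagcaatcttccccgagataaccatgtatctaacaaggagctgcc

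The same windows, with the 50 bases after each start, were searched on both strands for 5 motifs. Defb6 held the C/EBP letters at 209 and 166 bases before its start, S100a9 at 236, Lcn2 at 216 and Slpi at 241, the last on the opposite strand. They occur in 10.2% of the 21969 promoters of the table. S100a8 held TATAAA 30 bases before its start and S100a9 at its start, a motif found in 12.3% of promoters. The AP-1 motif, written TGANTCA, occurs in 7.31% of promoters, an NF-kB motif in 1.63% and an interferon response element in 3.37%. None of these last 3 occurred in the windows of the 6 members, and Camp held none of the 5 motifs.

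Of the 10 members 8 passed the filter on low counts, which asks for about 10 counts (0.175 CPM) in at least 3 libraries; Defb14 and Camp did not. Some passed mainly through the days on which they were high. Defb6 reached the level in 1 library of day 1 and in all 3 of days 7 and 14, Slpi in 1, 1 and 3 libraries, and Lcn2 in 0, 2 and 2. From day 1 to day 7, 4 of the 8 rose (Defb1, Defb6, Pglyrp4 and S100a8) and 0 fell, where 49.4% of all 14507 tested genes changed (25.5% higher and 24% lower; edgeR adjusted p under 0.05). From day 7 to day 14, 3 rose (Defb6, Pglyrp3 and Slpi) and 4 fell (Defb1, Pglyrp4, S100a8 and S100a9), against 67.6% of all tested genes changed (32.5% higher and 35.1% lower). Between days 1 and 14, 5 were higher and 1 lower, against 73.9% (35.5% higher and 38.4% lower). Over the 3 days 7 of 8 members changed, the exception being Lcn2, and 82.1% of all tested genes did; a share of members near that background is no result about the members. Median log2 changes of the 8 were 1.82, -0.28 and 1.63 in the 3 comparisons, beside -0.00053, -0.035 and -0.0459 over all tested genes. In these sorted bulk samples a lower share of cells making a transcript and less of it per cell cannot be told apart.

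**Figure D1:**
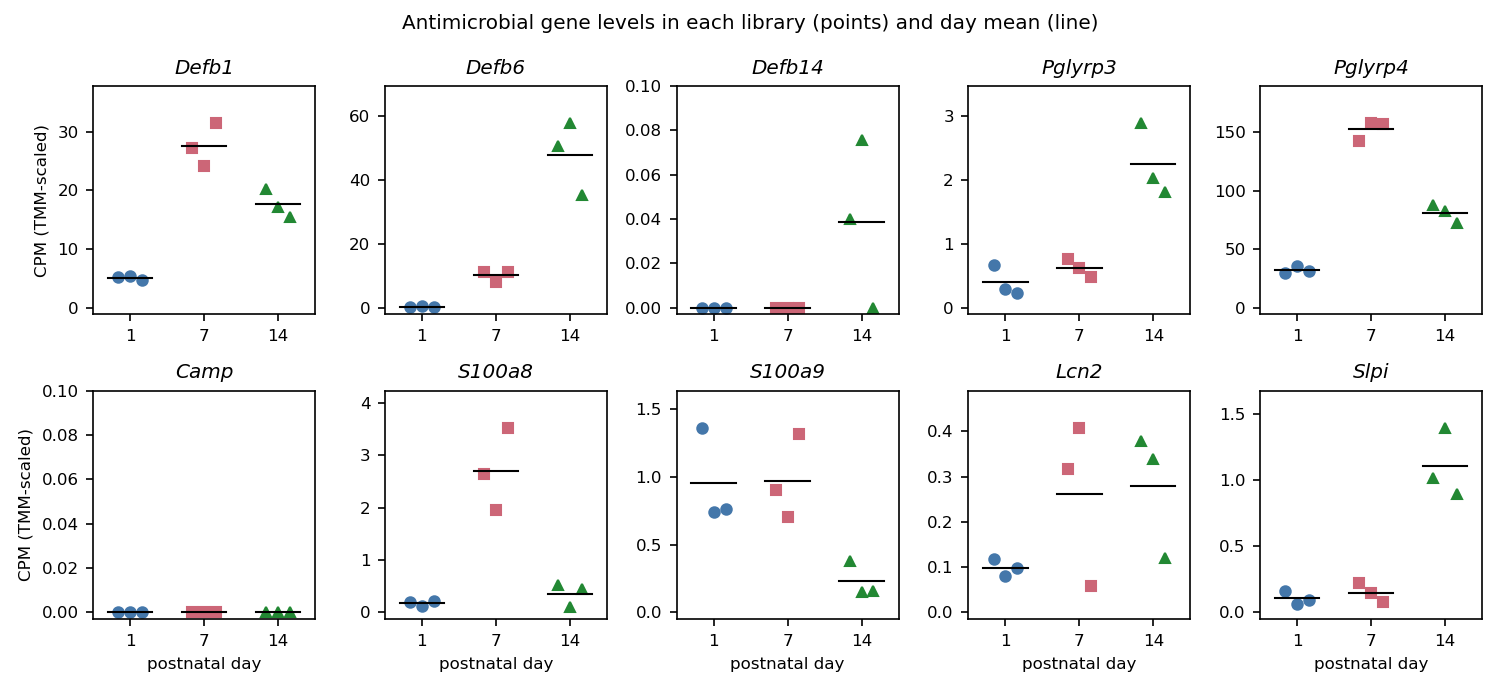
Level of each of the 10 genes (CPM on TMM-scaled libraries, linear axis with its own range per gene) in the 3 libraries of postnatal days 1, 7 and 14; points are libraries and lines are day means. Defb1, Pglyrp4 and S100a8 were highest on day 7, Defb6, Pglyrp3 and Slpi on day 14, and Camp had 0 counts throughout.

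Defb6, a beta-defensin, rose in each week. Its counts were 7, 39 and 9 in libraries 4, 5 and 6 of day 1, 702, 492 and 576 in libraries 1, 2 and 3 of day 7, and 2526, 3061 and 1773 in libraries 4, 5 and 6 of day 14. Scaled levels were 0.1035, 0.6274 and 0.1465 CPM, then 11.08, 8.023 and 11.14, then 50.45, 57.71 and 35.28. No library of one day overlapped those of another, although library 5 stood above the other libraries of day 1. Mean levels were 0.2925 ± 0.291, 10.08 ± 1.78 and 47.81 ± 11.4 CPM (SD, n = 3). The first week brought a log2 change of 5.12 ± 0.5 (SE; 34.7-fold, edgeR adjusted p = 0.0001534) and the second week one of 2.25 ± 0.33 (4.75-fold, edgeR adjusted p = 0.000725). Without library 5 of day 1 the first change was 6.32 (79.8-fold), and the change over both weeks was 8.55 (376-fold) in place of 7.36 ± 0.49 (165-fold, edgeR adjusted p = 6.584e-06). The log2 change of the second week was smaller than that of the first by 2.87 ± 0.71 (edgeR adjusted p = 0.01332), or by 4.08 without that library. Ordered by level per length (CPM divided by the kilobases of exon, over the 21366 genes with a length), Defb6 stood at rank 11066 on day 1, 2031 on day 7 and 370 on day 14, when 98.3% of these genes had a lower level.

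Defb1, the beta-defensin that many epithelia make without stimulation, rose in the first week and fell in the second. Its counts were 353, 334 and 290 on day 1, 1719, 1480 and 1627 on day 7 and 1011, 909 and 776 on day 14 (libraries in the order of their numbers). The levels were 5.221, 5.374 and 4.719 CPM, then 27.14, 24.13 and 31.47, then 20.19, 17.14 and 15.44. The libraries of the 3 days did not overlap, and day 14 lay between the others. The mean went from 5.105 ± 0.342 to 27.58 ± 3.69 CPM, a log2 change of 2.43 ± 0.12 (5.4-fold, edgeR adjusted p = 2.118e-08). It then reached 17.59 ± 2.41 CPM, a fall of 1.57-fold (log2 change -0.65 ± 0.11, edgeR adjusted p = 0.0002755). When the test asked for more than a 1.5-fold change, that fall was no longer called (adjusted p = 0.3737, and 2.62e-06 to 0.374 over the alternatives). Day 14 was still 3.44-fold above day 1 (log2 change 1.78 ± 0.12, edgeR adjusted p = 4.778e-08).

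Defb14, the mouse counterpart of an inducible human beta-defensin, had 0 counts in the 6 libraries of days 1 and 7 and counts of 2, 4 and 0 on day 14, and was not tested. A count of 0 allows up to 3 counts per library, which is 0.04437 CPM in library 4 of day 1 and at most 0.0599 CPM elsewhere. The table holds 39 other beta-defensin genes. None passed the filter, and 34 of them had 0 counts in all 9 libraries. The highest single count among them was 18, for Defb2 on day 14, a gene named here after its values were seen. Detected beta-defensin RNA thus came almost wholly from Defb1 and Defb6 in these libraries. Reads of near-identical defensin copies may have been split in counting, so low values of single members are uncertain.

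Pglyrp4, a peptidoglycan-binding bactericidal protein of the epidermis, had the most counts of the 10 genes on each day. Libraries of day 1 had 2001, 2214 and 1931 counts, those of day 7 had 9024, 9670 and 8123, and those of day 14 had 4384, 4367 and 3646. In CPM these were 29.6, 35.62 and 31.42, then 142.5, 157.7 and 157.1, then 87.55, 82.33 and 72.55, again without overlap between days. The mean rose from 32.21 ± 3.09 to 152.4 ± 8.61 CPM (log2 change 2.24 ± 0.08, 4.73-fold, edgeR adjusted p = 7.768e-09). It then fell to 80.81 ± 7.61 CPM (1.89-fold, log2 change -0.92 ± 0.08, edgeR adjusted p = 1.97e-06), which was 2.51-fold above day 1 (log2 change 1.33 ± 0.08, edgeR adjusted p = 5.675e-08). Per length it ranked 4324 among those genes on day 1, 780 on day 7, above 96.3% of them, and 1956 on day 14.

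Markers of the upper epidermal layers and of sebaceous gland cells moved in the same weeks. As background for the lists that follow, 25.5% of all tested genes rose and 24% fell in the first week. In the second week 32.5% rose and 35.1% fell. Of 11 tested suprabasal and granular markers, 7 rose and 0 fell in the first week, and 5 rose and 4 fell in the second. Their median log2 changes were 0.55 and 0.31. The summed level of these 11 markers was 10300 to 15300, 13600 to 14600 and 12600 to 13800 CPM on days 1, 7 and 14. The libraries of the 3 days thus overlapped in the sum. Casp14, a protease of cornifying keratinocytes, was at 28.74, 97.35 and 77.66 CPM, with log2 changes of 1.76 ± 0.09 and -0.33 ± 0.08 (edgeR adjusted p = 4.364e-08 and 0.005303), so it rose and then fell, as Defb1 and Pglyrp4 did. Other markers of this list did not share that course: Dsg1a (626, 898.6 and 1440 CPM) and Sbsn (87.21, 157.2 and 465.5 CPM) had their highest mean on day 14. Of 7 tested sebaceous markers, 3 rose and 0 fell in the first week, and 1 rose and 6 fell in the second (medians 0.29 and -1.32). The 8 in the table summed to 91.1 to 102, 120 to 146 and 257 to 263 CPM. Mgst1 was at 10.91, 23.75 and 9.544 CPM and also rose and then fell (log2 changes 1.12 ± 0.14 and -1.32 ± 0.15, edgeR adjusted p = 9.673e-05 and 1.683e-05), while Scd1, a lipid desaturase, was at 53.48, 68.41 and 222.8 CPM and rose in each week, as Defb6 did. Basal keratinocyte markers (7 tested) gave 5 higher and 1 lower, then 2 higher and 3 lower, and the 9 upper follicle and stress keratin markers gave 1 higher and 3 lower, then 1 higher and 4 lower. The part of these cell types in the changes of the members was not tested.

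Pglyrp3, which binds the same kind of cell-wall ligand, was far scarcer, and its rise was called in the second week but not in the first. Its counts were 45, 18 and 14, then 48, 38 and 25, then 145, 108 and 91 on the 3 days. Levels on days 1 (0.2278 to 0.6656 CPM) and 7 (0.4835 to 0.7579 CPM) overlapped, and their log2 difference was 0.65 ± 0.41 (edgeR adjusted p = 0.2109). Library 4 of day 1 was the highest of its day. Without it that difference was 1.26 (2.39-fold, adjusted p = 0.01808, and 0.0181 to 1.0 over the alternatives). All libraries of day 14 (1.811 to 2.896 CPM) lay above all earlier ones. The rise of the second week was 3.6-fold (log2 change 1.85 ± 0.39, edgeR adjusted p = 0.00104). From day 1 to day 14 the rise was 5.63-fold (log2 change 2.49 ± 0.4, edgeR adjusted p = 0.0001054), and 8.55-fold without library 4 of day 1.

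S100a8 and S100a9 encode the subunits of calprotectin, a complex that binds zinc and manganese ions and is abundant in neutrophils and in inflamed epidermis. S100a8 had 13, 8 and 13 counts on day 1, 167, 120 and 182 on day 7, and 26, 6 and 22 on day 14. In CPM this was 0.1923, 0.1287 and 0.2116, then 2.637, 1.957 and 3.52, then 0.5192, 0.1131 and 0.4378. Day 7 stood above all other libraries, while days 1 and 14 overlapped. S100a8 rose 15.0-fold in the first week (log2 change 3.91 ± 0.47, edgeR adjusted p = 2.641e-05) and fell 7.57-fold in the second (log2 change -2.92 ± 0.44, edgeR adjusted p = 9.085e-05). Day 14 differed from day 1 by a log2 value of 0.99 ± 0.51 (edgeR adjusted p = 0.09494), which became 1.41 (2.66-fold, adjusted p = 0.006949, and 0.00695 to 0.397 over the alternatives) without library 5 of day 14.

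S100a9 had 92, 46 and 47 counts on day 1, 57, 43 and 68 on day 7, and 19, 8 and 8 on day 14. Levels of days 1 (0.7401 to 1.361 CPM) and 7 (0.7012 to 1.315 CPM) overlapped, with a log2 difference of 0.018 ± 0.41 (edgeR adjusted p = 0.9771) whose sign depended on the scaling and on single libraries. All libraries of day 14 (0.1508 to 0.3794 CPM) were lower. The fall of the second week was 4.2-fold (log2 change -2.07 ± 0.46, edgeR adjusted p = 0.001646), and day 14 was 4.15-fold below day 1 (log2 change -2.05 ± 0.46, edgeR adjusted p = 0.001437). Both subunits thus fell in the second week, and S100a8 was the one called in the first; their ratio is tested further on.

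Neutrophils also carry S100a8 and S100a9, and their markers were read in the same libraries. Ly6g and Mpo, fixed as markers of them, had 0 counts in all 9 libraries, and 8 of the 13 neutrophil markers were at 0 throughout. Csf3r and Retnlg were also among these 8, and Cxcr2 had 0 to 5, 0 to 8 and 5 to 12 counts on the 3 days. The summed level of the 13 was 0.901 to 1.54 CPM on day 1, 0.603 to 0.932 on day 7 and 0.497 to 0.999 on day 14. That sum rests mostly on Mmp9 (26 to 67, 20 to 45 and 5 to 30 counts per library) and Prtn3 (25 to 39, 2 to 8 and 11 to 14 counts). The 15 markers of other leukocytes summed to 5.66 to 7.42, 4.42 to 5.04 and 16.9 to 17.3 CPM, so they were highest on day 14. Much of that sum was Cd68, with means of 4.154, 2.73 and 8.733 CPM on the 3 days. Ptprc, which encodes CD45, had at most 4, 6 and 9 counts per library on the 3 days. Cd207, of Langerhans cells, had 0 counts on day 1, 9 to 13 on day 7 and 34 to 64 on day 14. Of 9 tested leukocyte markers 7 rose in the second week, where 32.5% of all tested genes rose. Defb6, Pglyrp3 and Slpi rose in the same week, and the part of leukocytes in those rises was not tested. The 8 adipocyte markers, of a cell type that makes Camp in infected skin, summed to 1.51 to 2.64, 1.04 to 3.09 and 0.959 to 1.34 CPM, and Adipoq had at most 6 counts.

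Camp, the cathelicidin precursor, had 0 counts in every library. A count of 0 allows up to 3 counts per library, at most 0.0599 CPM in any of them, a limit that covers counting error only.

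Slpi, an inhibitor of neutrophil elastase that also has antibacterial activity, had 11, 4 and 6 counts on day 1, 14, 9 and 4 on day 7, and 51, 74 and 45 on day 14. Levels of the first pair of days overlapped (0.06435 to 0.1627 and 0.07737 to 0.2211 CPM), and each library of day 14 (0.8955 to 1.395 CPM) was higher than all of those. The second week brought a 7.23-fold rise (log2 change 2.85 ± 0.49, edgeR adjusted p = 0.0002276), after a log2 difference of 0.46 ± 0.55 in the first (edgeR adjusted p = 0.5242). Lcn2, which binds bacterial siderophores, had 8, 5 and 6 counts, then 20, 25 and 3, then 19, 18 and 6. Library 3 of day 7 was the lowest of all 9. The log2 difference between days 7 and 1 was 1.4 ± 0.71 (edgeR adjusted p = 0.1255), and that between days 14 and 1 was 1.48 ± 0.72 (edgeR adjusted p = 0.08139). Without library 3 of day 7 the first of these was 1.85 (3.6-fold, adjusted p = 0.03834, and 0.0383 to 0.502 over the alternatives) and the second 1.47 (adjusted p = 0.04737). Without library 6 of day 14 the second was 1.83 (adjusted p = 0.04605, and 0.0461 to 0.223 over the alternatives).

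The change of the second week was tested directly against that of the first. It was lower in 5 members (Defb1, Defb6, Pglyrp4, S100a8 and S100a9) and higher in 1 (Slpi), where 51.8% of all tested genes differed (24.2% higher and 27.6% lower). No difference was called for Pglyrp3 (log2 value 1.2 ± 0.69, edgeR adjusted p = 0.1665) or Lcn2 (-1.32 ± 1.16, edgeR adjusted p = 0.3627). S100a8 had the widest difference, with a log2 value of -6.83 ± 0.71 (edgeR adjusted p = 1.241e-05). Pglyrp4 differed by -3.16 (edgeR adjusted p = 9.061e-08) and Defb1 by -3.08 ± 0.19 (edgeR adjusted p = 3.488e-07). For S100a9 the difference was -2.09 ± 0.72 (edgeR adjusted p = 0.02869), and it was lost without library 5 or 6 of day 1, 1 or 3 of day 7, or 5 or 6 of day 14 (adjusted p from 0.05474 to 0.1529), and under the 1.5-fold test (0.102). For Slpi it was 2.4 ± 0.93 (edgeR adjusted p = 0.04679). That call was lost without library 4 or 6 of day 1, 2 or 3 of day 7, or any library of day 14 (adjusted p from 0.05775 to 0.163), and without library 1 of day 7 the value was 3.19. It was also lost with library totals (adjusted p = 0.0526), limma-voom, no low-count filter and the 1.5-fold test.

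**Figure D2:**
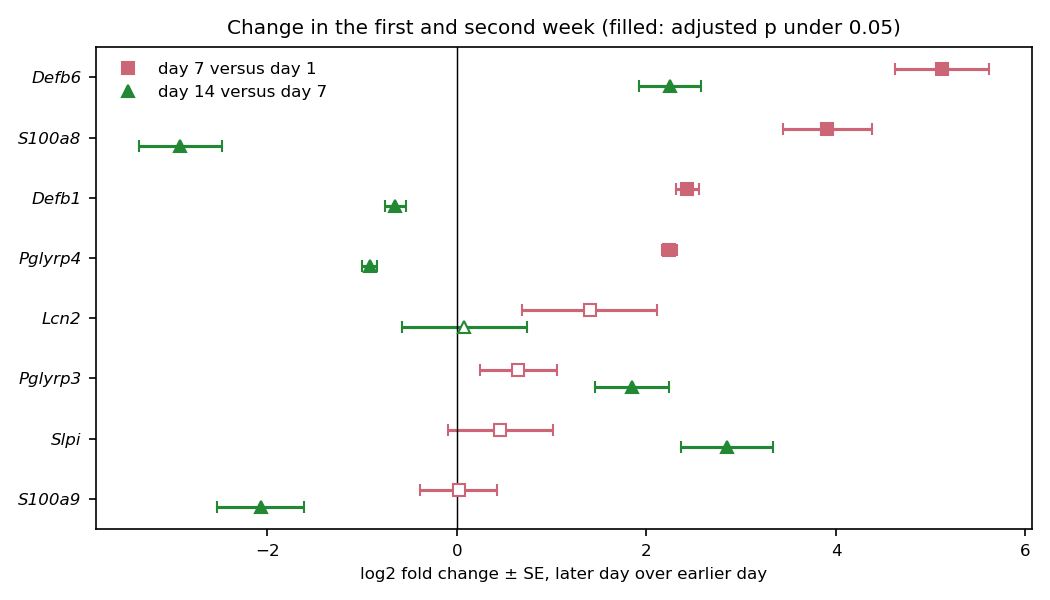
Log2 fold change ± SE of the 8 tested genes in the first week (squares, day 7 versus day 1) and the second (triangles, day 14 versus day 7); filled symbols have an adjusted p under 0.05. Defb6 lies above 0 in both weeks, Defb1, Pglyrp4 and S100a8 change sign, and Pglyrp3 and Slpi have filled symbols in the second week but not in the first.

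Levels were compared between genes per length, as CPM per kilobase of annotated exon. The lengths used ran from 204 bases for Defb14 and 323 for Defb6 to 872 for Defb1 and 2229 for Pglyrp4. Together the 10 genes summed to 23.99 ± 2.0 CPM per kilobase on day 1, 139.7 ± 10.9 on day 7 and 209.4 ± 40.5 on day 14 (SD, n = 3). Single libraries ran from 22.29 to 26.19, from 129.8 to 151.4 and from 163.5 to 239.9, so the days did not overlap. Without division by length, the summed CPM of the 10 genes was 37.4 to 42.9, 186 to 205 and 127 to 163. That sum was highest on day 7 and fell in the second week, so the second-week rise depends on the division by length.

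The make-up of the sum changed as well. Pglyrp4 gave 60.3 ± 3.44% of it on day 1, 49.1 ± 4.64% on day 7 and 17.6 ± 2.26% on day 14. Defb6 went from 3.61 ± 3.32% to 22.3 ± 2.92% and 70.3 ± 3.88%, and Defb1 from 24.4 ± 0.983% to 22.6 ± 1.26% and 9.78 ± 1.4%. In reads Pglyrp4 still led Defb6 on day 14, with 12397 counts over the libraries of that day against 7360. The lead of Defb6 over Pglyrp4 on day 14 therefore depends on the division by length. S100a9 gave 7.69 ± 3.0% on day 1 and S100a8 gave 3.94 ± 0.841% on day 7. For each other member and day the mean share was at most 1.55%, and the highest share in a single library was 2.56% (Pglyrp3 on day 1).

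On day 1 the mean order per length was Pglyrp4 (14.45 CPM per kilobase), Defb1 (5.854) and S100a9 (1.83), then Defb6 (0.9055), S100a8 (0.3653) and Pglyrp3 (0.3562). Neighbours in that order from S100a9 down to Pglyrp3 overlapped between libraries. Slpi (0.1203) and Lcn2 (0.108) came below them and overlapped each other. Day 7 began with Pglyrp4 (68.38 CPM per kilobase), followed by Defb1 (31.63) and Defb6 (31.22), which overlapped. S100a8 (5.565), S100a9 (1.862) and Pglyrp3 (0.5604) came next, each apart from the one before, and Pglyrp3 overlapped Lcn2 (0.2847). On day 14 Defb6 (148.0 CPM per kilobase) stood first, ahead of Pglyrp4 (36.25), Defb1 (20.17) and Pglyrp3 (2.03), each apart from the next. The rest, from Slpi (1.226) through S100a8 (0.734), S100a9 (0.4403) and Lcn2 (0.3053) to Defb14 (0.1885), formed a run in which neighbours overlapped.

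**Figure D3:**
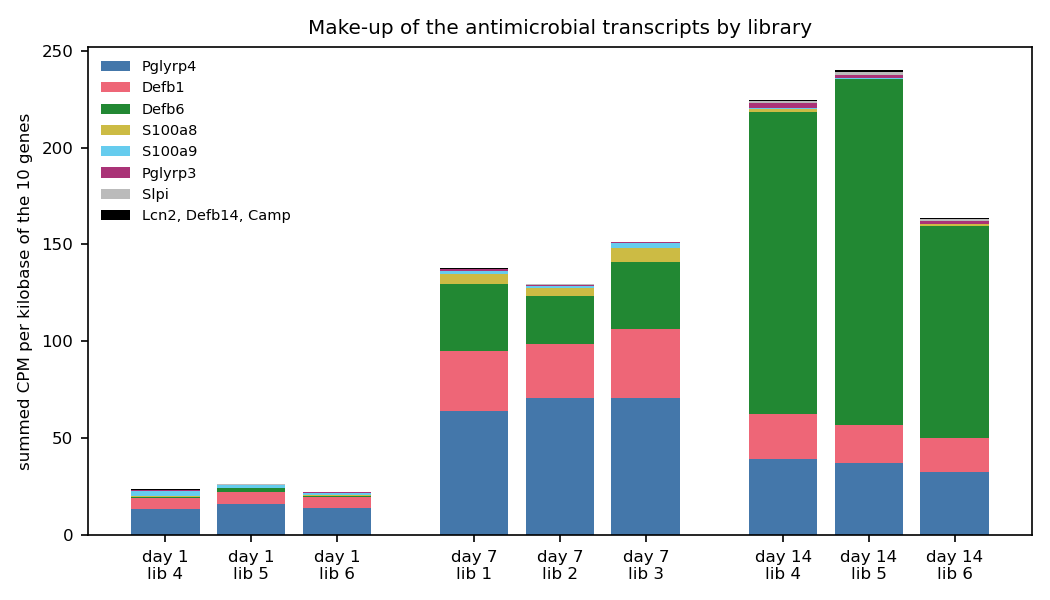
Summed level per length (CPM per kilobase) of the 10 genes in each of the 9 libraries, stacked by gene; bars start at 0. Pglyrp4 is the largest part on day 1 and day 7, and Defb6 the largest on day 14, where the sum was 163.5 to 239.9 CPM per kilobase. In read counts, without division by length, Pglyrp4 was above Defb6 on day 14 as well.

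Ratios within a library, which need no scaling between libraries, were followed for 3 pairs. Counts of S100a8 per count of S100a9 were 0.141, 0.174 and 0.277 on day 1, 2.93, 2.79 and 2.68 on day 7, and 1.37, 0.75 and 2.75 on day 14. The subunit with more reads therefore differed between days 1 and 7, and on day 14 it differed between libraries. The log2 ratio was -2.35 ± 0.49, 1.48 ± 0.06 and 0.49 ± 0.9 (SD, n = 3; exact permutation test of any difference between days, p = 0.00357). Per length, the level of S100a9 was 5.35 times that of S100a8 on day 1 (median), and that of S100a8 was 3.0 times that of S100a9 on day 7.

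Defb1 counts per Defb6 count were 50.4, 8.56 and 32.2, then 2.45, 3.01 and 2.82, then 0.4, 0.297 and 0.438. The ratio fell from day to day without overlap, and its log2 value was 4.53 ± 1.29, 1.46 ± 0.15 and -1.42 ± 0.29 (n = 3, exact permutation p = 0.00357). Per length, which raises the shorter Defb6, the ratio of Defb1 to Defb6 was 1.05 on day 7 (median), and Defb6 stood at 6.75 times Defb1 on day 14. Pglyrp4 had 44.5, 123 and 138 counts per Pglyrp3 count on day 1, 188, 254 and 325 on day 7, and 30.2, 40.4 and 40.1 on day 14. The imbalance was widest on day 7 and the log2 ratio of Pglyrp3 to Pglyrp4 was -6.47 ± 0.88, -7.94 ± 0.39 and -5.19 ± 0.24 (n = 3, exact permutation p = 0.00357). This p is the smallest that the 1680 assignments allow, and it stayed 0.00357 after adjustment over the 3 pairs. With 1 library left out, the adjusted permutation p reached 0.0393 for Pglyrp3/Pglyrp4. For S100a8/S100a9 and Defb1/Defb6 it reached 0.00714. Defb1 and Defb14 were planned as a pair but not tested, since Defb14 did not pass the filter.

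**Figure D4:**
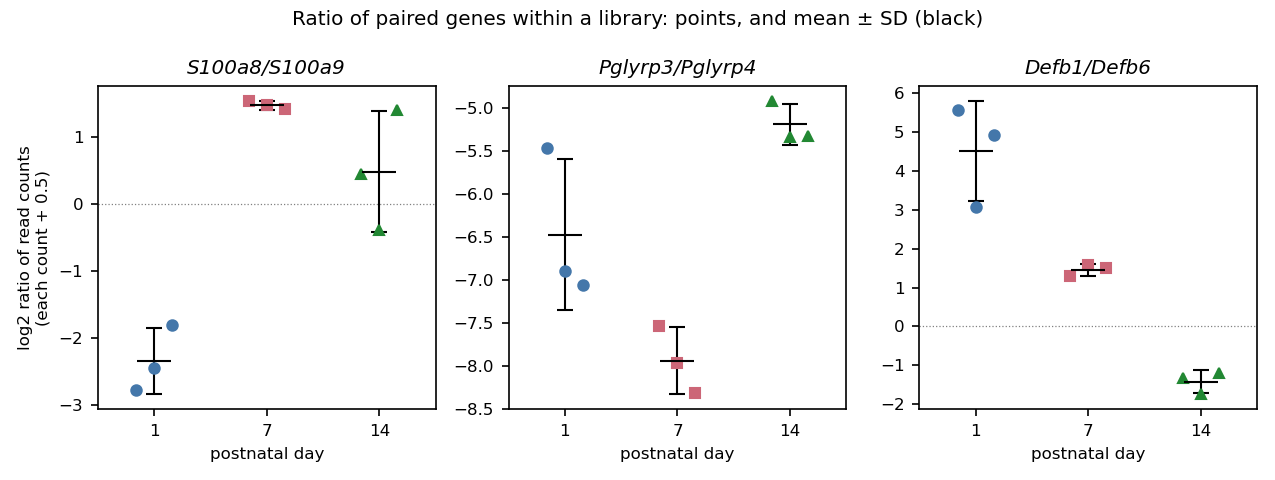
Log2 ratio of read counts within a library (0.5 added to each count) for S100a8/S100a9, Pglyrp3/Pglyrp4 and Defb1/Defb6; points are libraries, and black marks are mean ± SD of 3 libraries per day. The S100a8/S100a9 ratio is below 0 on day 1 and above 0 on day 7, and the Defb1/Defb6 ratio falls through 0 by day 14.

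Genes next to the members on the chromosome did not share a single pattern. Among the 3 genes on each side of every member, 40 were not members, and 14 of these were tested. In the first week 3 of the 14 rose, 2 fell and 9 were not called. In the second week 4 rose, 6 fell and 4 were not called. Of all tested genes 49.4% changed in the first week and 67.6% in the second, and the counts of these few neighbours are a description only. S100a6, a calcium-binding gene near S100a8, was at 88.8, 225 and 180 CPM, with log2 changes of 1.34 and -0.32 (edgeR adjusted p = 9.94e-09 and 0.0005011). S100a7a, which lies 10941 bases from S100a8, did not pass the filter. Lor, which encodes the cornified envelope protein loricrin and lies 47599 bases from Pglyrp3, was at 5.48, 5.69 and 14.5 CPM and rose in the second week by 1.35 (log2, edgeR adjusted p = 9.213e-05). The defensin genes beside Defb1, Defb6 and Defb14 that are not members were at or near 0 counts.

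Across the 9 libraries, the expressed genes whose log2 levels followed each member most closely were listed as a description; with libraries in 3 days, any gene of a like day pattern gives a high correlation. For Defb1 these were Cat, which encodes catalase (r = 0.9947), and Fam167a (0.9926), the second of which was also close to Pglyrp4 (0.992), behind the transporter gene Slc16a14 (0.9954). Defb6 went with Ucp2, a mitochondrial carrier gene (0.9971), and Skint3 (0.9953), a gene of the epidermal Skint family that went from 1.57 to 16.5 and 47.2 CPM. S100a8 was followed by Egln1 (0.9808), which encodes an oxygen-sensing prolyl hydroxylase, and Aldh9a1 (0.9757). For S100a9 they were Bivm (0.987) and Usp30 (0.9823), for Pglyrp3 Prkch (0.9783) and Phlpp1 (0.9761), and for Slpi Jade1 (0.9911) and Rgs2 (0.9882). The candidates with r over 0.95 numbered 552 for Defb6 and 525 for Slpi, but 21 for S100a8, of about 9606 genes in each search.

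Other secreted defence genes were read beside the members. Of 34 listed, 12 were tested. In the first week 6 rose and 1 fell, and in the second 5 rose and 3 fell. On day 14, 8 were higher and 3 lower than on day 1. Medians of the 3 comparisons were 0.66, 0.42 and 1.71 (log2). The shares over all tested genes were 25.5% higher and 24% lower, 32.5% higher and 35.1% lower, and 35.5% higher and 38.4% lower. Ccl20, a chemokine with antibacterial activity, went from 1.319 to 12.03 and 5.898 CPM, with log2 changes of 3.19 ± 0.17 and -1.03 ± 0.15 (edgeR adjusted p = 2.816e-08 and 6.899e-05), a rise and fall like that of Defb1 and Pglyrp4. Rnase4, a secreted ribonuclease, went from 150.4 to 234.0 and 282.1 CPM, and Ang (angiogenin) from 11.19 to 17.93 and 26.75 CPM, and both rose in each week. Rnase4 and Ang lie in 1 locus with shared promoters, so their reads may not be fully separate.

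**Figure D5:**
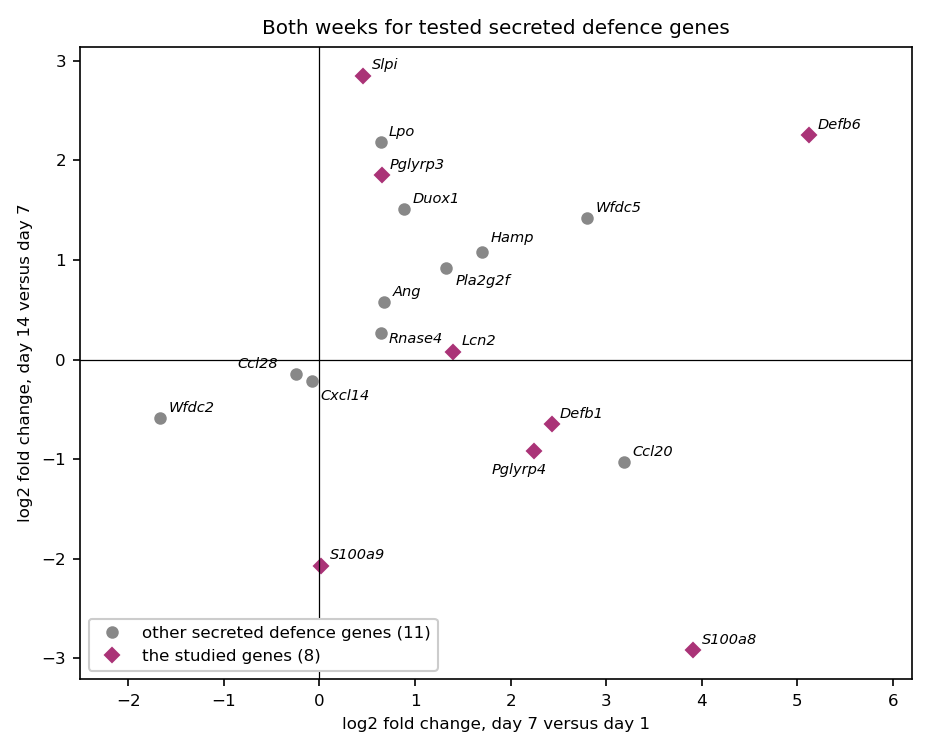
Log2 fold change in the second week (vertical) against that in the first (horizontal) for the 8 tested members (diamonds) and 11 tested other secreted defence genes (circles; Saa1, at 0 counts on day 14, is left out). Defb6 lies at upper right, Pglyrp4, Defb1, Ccl20 and S100a8 at lower right, and Pglyrp3 and Slpi at the top near the vertical axis.

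Proteases and inhibitors that process or protect the peptides were mixed. Of 17 listed, 13 were tested. There were 6 higher and 4 lower in the first week and 6 higher and 3 lower in the second (medians 0.27 and 0.13). All tested genes gave 25.5% higher and 24% lower in the first week, and 32.5% higher and 35.1% lower in the second. Spink5, an inhibitor of epidermal kallikreins, went from 5.514 to 24.16 and 70.59 CPM (log2 changes 2.13 ± 0.14 and 1.55 ± 0.13, edgeR adjusted p = 1.85e-06 and 4.647e-06). Prss8, the channel-activating protease prostasin, was at 7.416 and 7.546 CPM on days 1 and 7 and rose to 23.49 on day 14 (log2 change 1.64 ± 0.1, edgeR adjusted p = 3.099e-08). Klk11, a kallikrein, went from 56.53 to 72.59 and 120.8 CPM and rose in each week. With library totals in place of TMM scaling the second-week counts of this list were 5 higher and 5 lower, and its median was -0.0456.

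Inducers of the peptides and their receptors, and sensing and regulatory genes, were counted in the same way. Of all tested genes 25.5% rose and 24% fell in the first week, and 32.5% rose and 35.1% fell in the second. Among 19 tested inducers and receptors, 14 rose and 1 fell in the first week and 12 rose and 3 fell in the second (medians 0.44 and 0.46). With library totals in place of TMM scaling these were 12 and 1, then 12 and 5 (medians 0.343 and 0.284). Il17ra, the shared receptor chain of the Il17 family, went from 30.15 to 39.88 and 98.33 CPM (log2 changes 0.4 ± 0.05 and 1.3 ± 0.05, edgeR adjusted p = 1.508e-05 and 4.574e-10). Il6ra, an interleukin receptor chain, went from 49.0 to 145.5 and 218.4 CPM, and the oncostatin M receptor Osmr from 24.65 to 49.76 and 108.1 CPM, and both rose in each week. Of 29 tested sensing and regulatory genes, 17 rose and 0 fell in the first week, and 20 rose and 3 fell in the second (medians 0.36 and 0.76). Library totals gave 13 and 0, then 19 and 4, for this list (medians 0.26 and 0.586).

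The receptors of bacterial peptidoglycan fragments were among those that rose. Nod2, a cytosolic sensor of muramyl dipeptide, went from 12.45 to 48.04 and 172.0 CPM (log2 changes 1.95 ± 0.11 and 1.84 ± 0.1, edgeR adjusted p = 3.725e-07 and 1.843e-07). Nod1, its relative, went from 38.97 to 62.74 and 106.9 CPM, and their shared kinase Ripk2 from 17.53 to 23.05 and 56.59 CPM, and both rose in each week. Nod2 thus rose in both weeks, whereas Pglyrp4 rose and then fell. Of 11 receptors and partners of the peptides 6 were tested. They gave 4 higher and 2 lower in the first week and 2 higher and 2 lower in the second. Over all tested genes the shares were 25.5% higher and 24% lower, then 32.5% higher and 35.1% lower. P2rx7, an ATP-gated channel, went from 2.376 to 8.535 and 6.083 CPM (log2 changes 1.84 ± 0.15 and -0.49 ± 0.15, edgeR adjusted p = 1.148e-06 and 0.01037). The annexins Anxa1 (444.9, 698.8 and 1376 CPM) and Anxa2 (1741, 2328 and 2758 CPM), the latter a partner of an S100 protein, rose in each week. In all of these lists the counts stand beside the background shares given above, and nothing in them is called particular to the list.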

How the data were processed

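RNA-seq of 9 libraries (3 per day) was analysed. The submitters' processing notes name HISAT2 2.1.0 and StringTie 1.3.4d, besides bcl2fastq 2.20.0 and Trimmomatic, with the build mm10. How counting was done, and with which annotation and strand setting, is not given in the sources used here. The values used are whole-number counts of reads per gene, which the authors deposited without normalisation, per the file headers. A further 18 columns of normalised values were not used. Their headers give the day and not the sample, a limit that the count columns share. Libraries were assigned to days by their headers. Levels per length divide CPM by the union of exons of the GENCODE vM21 basic set, matched by gene identifier.

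Counts were tested with edgeR 4.0.16 in R 4.3.3 (filterByExpr, TMM scaling, robust quasi-likelihood F test, 1 model over 9 libraries, Benjamini-Hochberg adjustment over the 14507 genes tested), with a call at an adjusted p under 0.05 and no fold minimum. The procedure was tested on simulated data in which far fewer genes changed than were called here. That simulation does not cover scaling under so broad a change. Ratios of members used exact permutation over 1680 assignments of libraries to days. Total counts of 50670191 to 62970768 per library allow 3 counts as the limit behind a count of 0. Alternatives were RLE factors, library totals, TMM without the 50 most abundant genes, DESeq2 1.42.0, limma-voom (limma 3.58.1), other count filters, a 1.5-fold test, fits of only the days compared, a block by library number and leaving out each library. The median log2 change of all genes was moved by library totals to -0.0995, -0.21 and -0.319 in the 3 comparisons. Of all calls, 51.5%, 48.1% and 48.1% were upward with TMM and 35.7%, 34.9% and 31.9% with library totals.

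The members and gene lists were chosen with earlier results of these data known. The text names all members, fixed markers, the 2 genes most correlated with each changed member, and adjoining genes. From each other list it names the 3 genes with the smallest any-day p, but only some of these for the cell-type markers. A few genes, such as Mmp9, Defb2 and Saa1, fall outside these rules. Il36a, Il36b and Il36g were matched under older symbols; Il36rn and Flg were not matched. Some listed genes (Elane, Prtn3, Ctsg, Ltf and Lyz2) are in 2 lists.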

Additional observations from a re-analysis of the deposited data

How the results depend on the processing

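Of 685 alternative values of single members, 651 kept their direction and their side of the threshold, 19 lost a call, 6 gained one and 9 changed sign. Those that changed sign were never called. The first-week log2 difference of S100a9 was -0.08244 with library totals, -0.008979 with limma-voom and -0.1338, -0.1154 and -0.2532 without library 5 or 6 of day 1 or library 3 of day 7, and leaving out each library in turn gave -0.2532 to 0.3644. The second-week difference of Lcn2 was -0.09086 with library totals and -0.3804, -0.2032 and -0.09009 without library 3 of day 7 or library 4 or 5 of day 14, in a range of -0.3804 to 0.5287. The single member lower on day 14 than on day 1, S100a9, was not tested under a minimum mean of 1 CPM, which left 0. The single member with a higher second step, Slpi, was not called with library totals, limma-voom, no low-count filter, a minimum mean of 1 CPM (where it was not tested) or the 1.5-fold test, each leaving 0, and leaving out 1 library gave 0 to 1. Over all alternatives the number of members changed was 4 to 5 in the first week, 5 to 7 in the second and 4 to 7 over both. The library numbers shared by days 1 and 14 did not pair the libraries (correlations of same-numbered deviations 0.0141, 0.0102 and 0.104, and not every library was closest to its own number). With the replicate block, in a fit of days 1 and 14 only, 6 members changed, 5 higher and 1 lower, as in the main fit. That fit called 10170 of 14306 genes. Without the block, the fit of the same days called 10531 of 14306. Titles number the libraries differently and could not be tied to columns. The 1.5-fold test called 12.3%, 22% and 34.8% of all genes in the 3 comparisons. At counts under about 20 per library (Lcn2, Slpi and S100a8 on day 1), sampling limits what can be detected. Shares of the summed level per length were recomputed with the longest transcript as length (chosen after seeing the data). Defb1, Defb6 and Pglyrp4 have the same length either way (872, 323 and 2229 bases). Their shares could therefore hardly move, and the recomputation cannot show whether the make-up depends on the length used. The planned fit of log2 TPM was not run. The TPM columns name no sample, which is also true of the count columns.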
